A study of Mus musculus with 6 samples.

Results

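The clustered protocadherins are 58 genes in 3 neighbouring tandem arrays on mouse chromosome 18, named alpha, beta and gamma. They were taken as every row of the deposited table whose Ensembl identifier carries a symbol starting with *Pcdha*, *Pcdhb* or *Pcdhg* in GENCODE release M21, and they made up 58 of its 18254 genes. All 58 genes that this annotation lists under these names were in the table, 14 in the alpha, 22 in the beta and 22 in the gamma cluster. RNA was sequenced from the medial prefrontal cortex (mPFC) of male mice on a C57BL/6J background, aged 10 to 12 weeks. The comparison was between *Shank3* transgenic (TG) mice, which carry an EGFP-*Shank3* transgene encoding a scaffold protein of excitatory synapses, and wild-type (WT) littermates without it. The promoter of the transgene is not given in the sources used here. There were 6 libraries, 3 of each genotype, named by genotype and number (TG-1, WT-1 and so on), and each was made from the pooled tissue of 2 mice, so that a library is a pool and not an animal. The tissue holds all cortical cell types, and for every value below fewer cells of a type and less RNA per cell cannot be told apart.

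Clustered protocadherins are cadherin-related adhesion proteins of the neuronal surface. In the alpha and gamma clusters each gene has its own large first exon, which encodes the extracellular, membrane-spanning and proximal cytoplasmic parts. This exon is spliced to 3 constant exons that all genes of the cluster share. The beta genes consist of 1 exon each and have no constant part. Each neuron switches on a small and largely random choice of the alternate genes through promoters bound by CTCF and cohesin, and the resulting mixture of proteins binds only the same mixture on another membrane, which lets branches of the same neuron recognise and avoid each other. The C-type genes at the end of the alpha and gamma clusters (*Pcdhac1*, *Pcdhac2*, *Pcdhgc3*, *Pcdhgc4* and *Pcdhgc5*) are not chosen in this random way and serve more general roles. In bulk tissue the level of an alternate gene therefore adds up over many cells that each express different members.

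In the GRCm38 annotation the alpha cluster lies on chromosome 18 from 36930184 to 37187661, the beta cluster from 37264938 to 37524479 and the gamma cluster from 37661793 to 37841873, all on the plus strand. The longest protein-coding transcript of every alpha and gamma gene has 4 exons, of which 3 were shared with other members, and that of every beta gene has 1 exon, of which 0 were shared. The gamma gene *Pcdhgb8* is annotated as a polymorphic pseudogene, and transcripts annotated so were counted as protein-coding here. The alpha cluster holds 12 alternate and 2 C-type genes, and the gamma cluster holds 12 genes of the A type, 7 of the B type and 3 C-type genes. Since the authors estimated transcript abundance with Salmon, reads from shared exons were divided between genes by the program. To see how much of each gene could carry reads of its own, exonic sequence was cut into windows of 31 bases. A median of 37.8% of the windows of an alpha gene were found in no other member (29.8% to 55.1%). For the gamma genes the median was 54.0% (32.5% to 72.7%) and for the beta genes 88.2% (77.5% to 100%). Counting windows found in no other annotated gene, member or not, lowered 4 genes by more than 4 percentage points: *Pcdha4* from 42.7% to 9.3%, *Pcdha6* from 37.5% to 28%, *Pcdha7* from 29.8% to 25.4% and *Pcdhgc5* from 72.7% to 61.7%. The sum over a cluster does not depend on how shared reads were divided within it, and the part of that division in the values of single alpha and gamma genes was not tested. The gene called *Pcdha10* here is ENSMUSG00000007440, which GENCODE release M21 also names *Pcdha11* and which RefSeq places as *Pcdha10*.

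The deposited values are normalized counts, that is, estimated reads per gene divided by a size factor of the library. A library summed to between 28363967 and 29447717 of them, and the clustered protocadherins took 0.106% to 0.112%. They are not whole reads, so no counting interval was computed, and a floor of 3 normalized counts was used. *Shank3*, the gene that defines the genotype, had 17470, 19004 and 16310 normalized counts in TG-1, TG-2 and TG-3 and 8374, 8173 and 6791 in WT-1, WT-2 and WT-3, with no overlap. All values below are given in this order of the libraries. Its log2 fold change was 1.18 ± 0.10 (SE, n = 3 against 3), with an adjusted p-value of 0.0643 in limma's test and of 0.000437 with the replicate number as a block. All 8 markers of excitatory cortical neurons and all 7 of inhibitory neurons were above the floor. Over all tested genes, libraries with the same number deviated together. The libraries numbered 3 stood furthest apart, so that results resting on them are also given without them.

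No clustered protocadherin was called as different between *Shank3* TG and WT mPFC. Of the 57 members that could be tested, 37 were higher and 20 lower in *Shank3* TG by the sign of the log2 fold change. Its median was 0.04 against -0.0037 for all 16714 tested genes. For *Pcdha6*, *Pcdhga9* and *Pcdhgb8*, counted as higher, the mean normalized counts were slightly lower in *Shank3* TG. In limma's two-sided test 0 members had an adjusted p-value under 0.05, as did 0 of all tested genes (0%), and the smallest adjusted p-value of a member was 1.00. Unadjusted, 1 member had a p-value under 0.05, against 336 of all tested genes (2.01%). This member, *Pcdha8*, was higher in *Shank3* TG, a direction in which 0.933% of the tested genes passed. With the replicate number as a block, which removes what libraries of the same number have in common, 2 members passed, *Pcdha8* and *Pcdha5*, and the share of all tested genes rose to 4.98% (833 genes). The adjusted p-value was under 0.05 for 0 members in that fit as well, the smallest being 0.678, and for 1 of all tested genes (0.00598%). An empirical null, in which all z-scores are widened by a common factor, gave 3 members with an unadjusted p-value under 0.05, the third being *Pcdhga12*, against 1215 of all tested genes (7.27%). By the adjusted p-value 0 members and 26 of all tested genes (0.156%) passed there.

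Most members had small fold changes. The log2 fold change was between -0.2 and 0.2 for 50 of the 57 members (87.7%), against 80.9% of all tested genes. Its 95% interval lay within -1 and 1 for 54 members (94.7%) against 84.1% of all tested genes, and within -0.5 and 0.5 for 39 members (68.4%) against 62.9% of all tested genes. The wider bounds of -1 and 1 held the intervals of all 22 gamma genes, of 20 of the 21 tested beta genes and of 12 of the 14 alpha genes. The members whose interval reached beyond them were *Pcdha2*, *Pcdha8* and *Pcdhb8*. The narrower bounds of -0.5 and 0.5 held the intervals of 18 gamma genes (81.8%), 16 beta genes (76.2%) and 5 alpha genes (35.7%). Of the 12 alternate alpha genes they held 3 (25%). The libraries of the genotypes did not overlap for 3 members, *Pcdha8*, *Pcdhga12* and *Pcdha5*, which is 5.26% of 57 against 6.02% of all tested genes. For single genes, permuting 3 against 3 libraries exactly allows no two-sided p-value below 0.1.

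**Figure D1:**
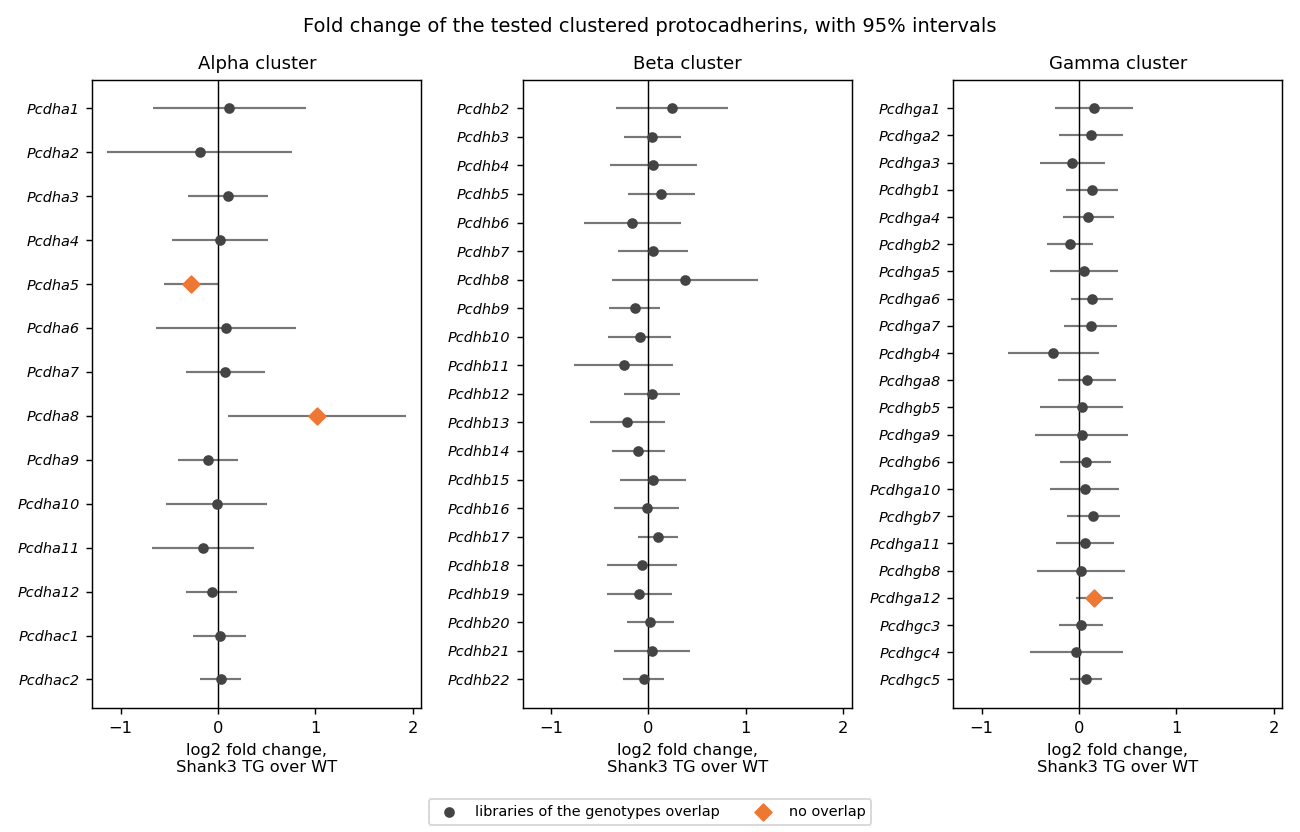
Log2 fold change of *Shank3* TG over WT (x axis, scale of log2(normalized count + 1)) for the 57 tested clustered protocadherins, listed from top to bottom in their order along the chromosome, with points at the estimate and bars for the 95% interval of limma's fit. Diamonds mark the 3 genes whose libraries do not overlap between genotypes, and only the interval of *Pcdha8*, at 1.02, does not reach 0.

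Summed over each cluster, the counts of both genotypes overlapped. The alpha cluster summed to 5962, 5509 and 6898 normalized counts in the TG libraries and to 5536, 6267 and 6663 in those of WT, a log2 ratio of the means of -0.01. The beta cluster gave 3931, 3876 and 3895 in the TG libraries, against 3785, 4225 and 3843 in the WT libraries, with a log2 ratio of -0.02. For the gamma cluster the sums were 21922, 20612 and 21811 in the TG libraries, against 20800, 20624 and 21010 in the WT libraries, with a log2 ratio of 0.04. The alpha and beta ratios were smaller than the pooled SD of the sums within genotype on the log2 scale (0.15 and 0.06), and the gamma ratio of 0.0435 was slightly above its SD of 0.0361. Leaving out 1 library at a time gave -0.10 to 0.06 for the alpha, -0.05 to 0.03 for the beta and 0.0275 (without TG-1) to 0.0713 (without TG-2) for the gamma cluster, so that the gamma ratio was not above its SD in each of these. Within the numbered pairs the direction was not the same, since TG-1 and TG-3 were above their WT partners and TG-2 below in all 3 clusters, in the gamma cluster by a log2 difference of only -0.00083.

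**Figure D2:**
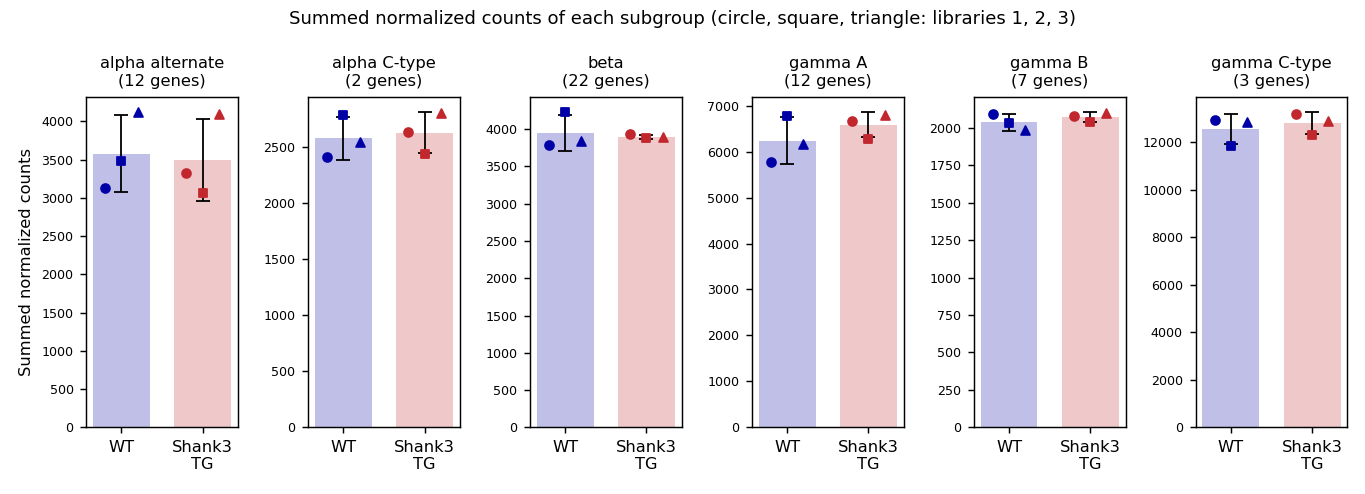
Summed normalized counts of each subgroup (y axis from 0, with a separate scale in each panel) in WT and *Shank3* TG, with bars at the mean of 3 libraries, error bars for 1 SD and markers for the libraries numbered 1, 2 and 3. The markers of both genotypes overlap in all 6 panels, and the alternate alpha genes are highest in library 3 of both genotypes, at 4116 and 4089.

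Levels of different genes were compared per kilobase of annotated exon. The gamma C-type gene *Pcdhgc5* was the most abundant member, with a mean of 860.0 normalized counts per kb over the 6 libraries (808 to 912). *Pcdhgc4* followed with 583 (421 to 719), *Pcdhgc3* with 518 (477 to 582) and *Pcdhac2* with 398 (369 to 434). *Pcdhgc5* was above the other 3 in every library. *Pcdhgc4* overlapped with *Pcdhgc3* and *Pcdhac2* in range, and in WT-2 it was below both (421 against 487 and 429). *Pcdhgc3* was above *Pcdhac2* with no overlap. Next came *Pcdhga11* with 188 per kb (158 to 218), *Pcdhga3* with 154 (132 to 176) and *Pcdhga12* with 128 (113 to 141), each overlapping with its neighbour in the order. The fifth C-type gene, *Pcdhac1*, was at 47.8 per kb (43.4 to 52.4), in the range of the alternate genes. Together the 5 C-type genes held 46.9% to 50.9% of the counts of all 58 members, and a mean of 42.7% of their summed level per kb. With the length of the longest protein-coding transcript in place of all exons the latter share was 47.8%. On that length *Pcdhgc5* was at 1383 per kb (1299 to 1467), the order of the first 5 genes was the same, and *Pcdhga12*, at 167 (148 to 184), came before *Pcdhga3*.

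Alternate genes were lower and spread over a range of levels. The median level per kb was 94.7 for the gamma A, 61.0 for the gamma B, 46.4 for the alternate alpha and 35.2 for the beta genes. The lowest of all was *Pcdhb1* (ENSMUSG00000051663, chromosome 18 from 37264938 to 37267525), the first gene of the beta cluster. It had 1.87, 0.880 and 2.22 normalized counts in the TG libraries, against 1.90, 3.86 and 1.194 in the WT libraries. Only WT-2 was above the floor of 3 normalized counts. With a mean under 5 normalized counts, *Pcdhb1* was the 1 member left out of the test, and no fold change was computed.

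**Figure D3:**
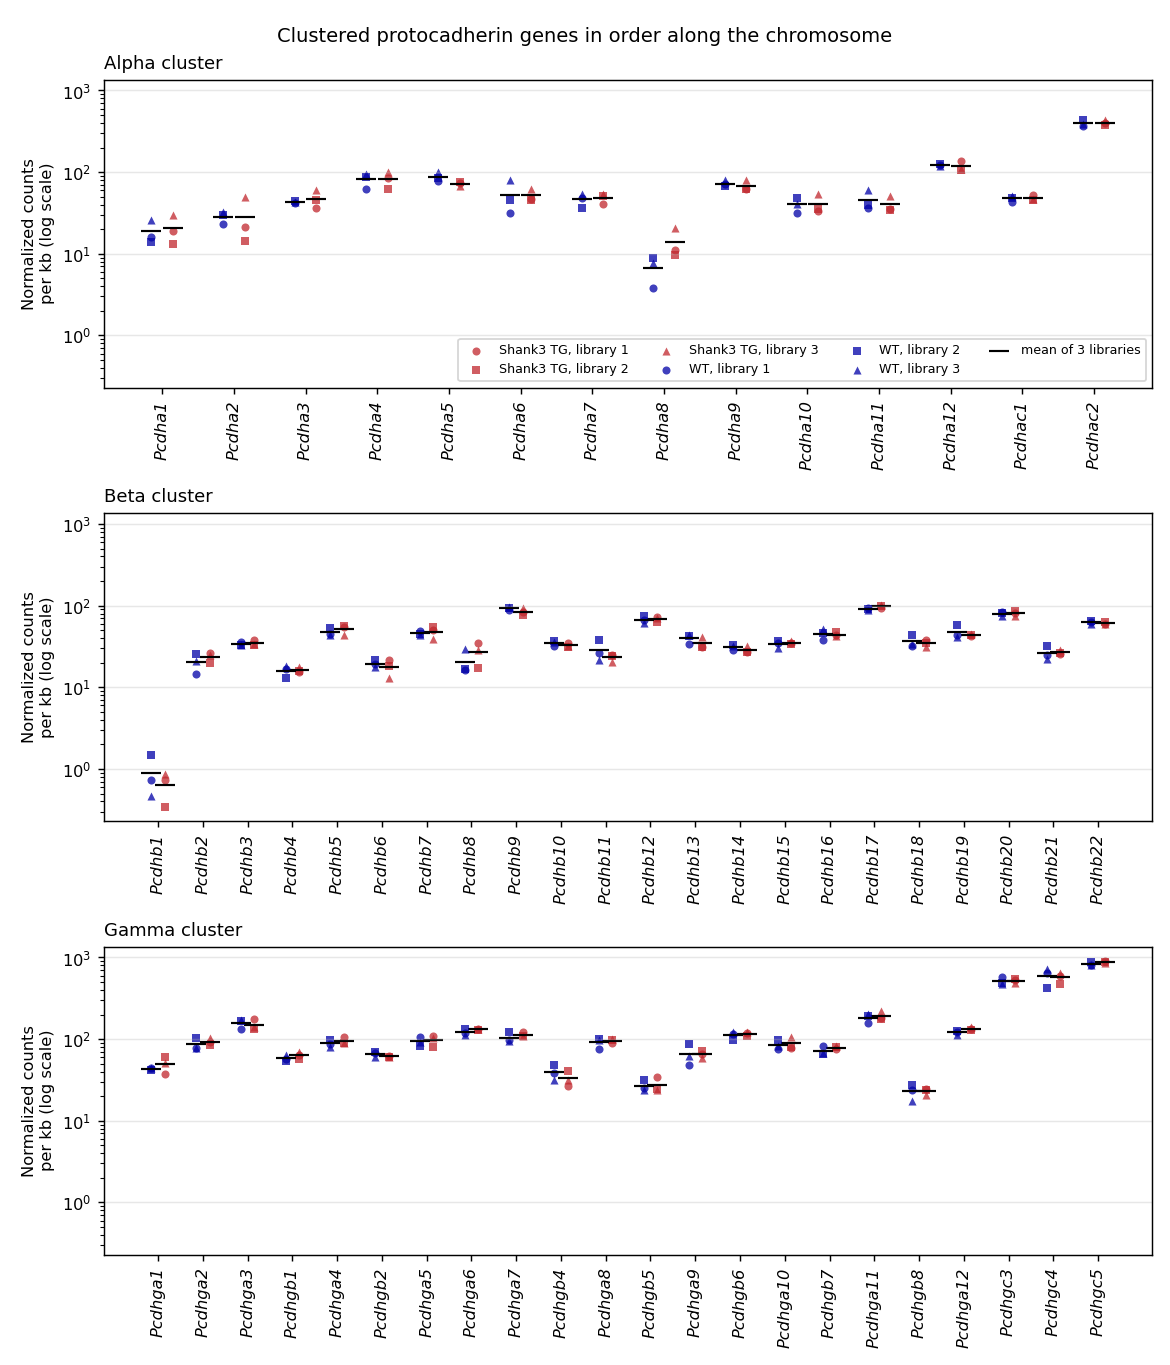
Normalized counts per kb of exon (y axis, log scale) of all 58 clustered protocadherins in their order along the chromosome, in WT (blue) and *Shank3* TG (red), with a marker for each of the 3 libraries and a line at their mean. *Pcdhac2* and the 3 gamma C-type genes stand above the other members in every library, at 369 to 912 per kb, and *Pcdhb1* stands below them.

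Among the alternate alpha genes, *Pcdha8* and *Pcdha5* were the members whose genotypes did not overlap, in opposite directions. *Pcdha8* (ENSMUSG00000103800, 36992371 to 37187657) had 60.2, 51.0 and 111 normalized counts in the TG libraries, against 20.2, 47.0 and 41.4 in the WT libraries. All *Shank3* TG libraries were above all WT libraries, but TG-2 lay just above WT-2, and TG-3 and WT-1 were far from the others of their genotype. Its log2 fold change was 1.02 ± 0.40 (SE, n = 3 against 3; 95% interval 0.10 to 1.94), with an unadjusted p-value of 0.0342 and an adjusted one of 1.00 in limma's test. With the block these were 0.00795 and 0.678. Leaving out 1 library at a time gave log2 fold changes from 0.65 (without WT-1) to 1.24 (without WT-2), and without both libraries numbered 3 the value was 0.82. Over all these fits together the unadjusted p-values from limma were between 0.0260 and 0.112. *Pcdha8* was also the lowest member of the alpha cluster, at 10.3 counts per kb, with 1.18% of the summed counts of the cluster in *Shank3* TG and 0.579% in WT.

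*Pcdha5* (ENSMUSG00000103092, 36960440 to 37187657) had 388, 395 and 349 normalized counts in the TG libraries, against 407, 445 and 527 in the WT libraries. The 3 *Shank3* TG libraries were below the 3 WT libraries, with TG-2 and WT-1 nearly touching. The log2 fold change was -0.28 ± 0.12 (SE), with an unadjusted limma p-value of 0.0524 and of 0.0382 with the block. Without WT-3, the highest library, it was -0.18, and without both libraries numbered 3 it was -0.12.

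*Pcdha1* (ENSMUSG00000103442) and *Pcdha2* (ENSMUSG00000104148), the first genes of the cluster, varied most between libraries of the same genotype, together with *Pcdha8*. *Pcdha1* had 101, 71.1 and 162 normalized counts in the TG libraries, against 86.0, 74.9 and 140.2 in the WT libraries. In both genotypes library 2 was lowest and library 3 highest. *Pcdha2* had 113, 76.7 and 266 in the TG libraries, against 124, 160 and 174 in the WT libraries, so that TG-2 was the lowest and TG-3 the highest of all 6. Their log2 fold changes were 0.12 ± 0.34 and -0.19 ± 0.41 (SE), and the direction of both turned when a library was left out, from -0.19 to 0.40 for *Pcdha1* and from -0.69 to 0.20 for *Pcdha2*.

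*Pcdha12* (ENSMUSG00000103310) was the most abundant alternate alpha gene. It had 729, 574 and 583 normalized counts in the TG libraries, against 652, 669 and 642 in the WT libraries, with a log2 fold change of -0.07 ± 0.11 (SE), which was -0.18 without TG-1 and -0.0051 without TG-2. TG-1 was above and the other *Shank3* TG libraries below the narrow range of WT. The C-type gene *Pcdhac2* (ENSMUSG00000102697), which guides the even spacing of serotonergic axons, had 2350, 2198 and 2556 normalized counts in the TG libraries, against 2174, 2524 and 2270 in the WT libraries. It made up 34.1% to 40.3% of the alpha cluster in every library, and its log2 fold change was 0.03 ± 0.09 (SE). *Pcdhac1* (ENSMUSG00000103255) had 284, 245 and 253 in the TG libraries, against 235, 262 and 276 in the WT libraries, a log2 fold change of 0.02 ± 0.12 (SE). For both C-type genes the ranges of the genotypes overlapped in part. Of 5 markers of serotonergic neurons 3 were measured, and their sum was at most 289 normalized counts in *Shank3* TG and at most 490.4 in WT.

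By the sign of the log2 fold change, 8 genes of the alpha cluster were higher in *Shank3* TG, among them *Pcdha6* with mean counts of 278 against 279 in WT. The other 6 were lower, and the median log2 fold change over the whole cluster was 0.02. This median depended on single libraries, from -0.11 without TG-3 to 0.08 without TG-2, and it was -0.04 without both libraries numbered 3. The alternate genes took 55.8%, 55.7% and 59.3% of the cluster's counts in the TG libraries, against 56.5%, 55.5% and 61.8% in the WT libraries, the rest being *Pcdhac1* and *Pcdhac2*. The mixture of alternate and C-type transcripts thus overlapped between genotypes, and library 3 had the largest share of alternate genes in each.

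Beta protocadherins lie between the other arrays and lack the constant cytoplasmic part. Of the 21 tested, *Shank3* TG was higher for 11 and lower for 10, with a median of 0.02 in the log2 fold changes, and 0 had genotypes without overlap. The 2 with the highest mean counts were *Pcdhb17* (ENSMUSG00000046387, 37484795 to 37489454) and *Pcdhb22* (ENSMUSG00000073591, 37517871 to 37524479), near the downstream end. *Pcdhb17* had 432, 461 and 477 normalized counts in the TG libraries, against 439, 428 and 413 in the WT libraries. Only TG-1 fell into the range of the WT libraries. The log2 fold change was 0.10 ± 0.09 (SE) with an unadjusted limma p-value of 0.307. Without both libraries numbered 3 the log2 fold change was 0.043. *Pcdhb22* had 391, 421 and 394 in the TG libraries, against 418, 432 and 396 in the WT libraries, with a log2 fold change of -0.05 ± 0.09 (SE). TG-1 and TG-3 were below all WT libraries, and TG-2 lay within their range. These were among the steadiest members, with an SD within genotype of 0.06 on the log2 scale for each, lower than that of all but 6.31% and 6.93% of the tested genes. The remaining log2 fold changes of the cluster lay between -0.25 and 0.38. The median of the cluster was -0.05 to 0.03 when 1 library at a time was left out, and thus had no stable direction.

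By the sign of the log2 fold change, 18 of 22 genes of the gamma cluster were higher in *Shank3* TG, with a median of 0.06. Among them were 11 of 12 of the A type, 5 of 7 of the B type and 2 of 3 of the C type. They include *Pcdhga9* and *Pcdhgb8*, whose mean counts were slightly lower in *Shank3* TG (364 against 366 and 106.08 against 106.14). Among all tested genes 8119 of 16714 were higher. The gamma genes share exons and libraries and are not independent of each other. The median was between 0.05 and 0.12 when 1 library at a time was left out and was 0.06 without both libraries numbered 3. Within the numbered pairs it was not uniform. In pairs 1 and 3 the *Shank3* TG library was above the WT library for 16 of the 22 genes, with medians of 0.14 and 0.11, whereas in pair 2 this was so for 7 genes, with a median of -0.09. In all 3 pairs 2 of the 22 genes (9.09%) were higher, *Pcdhga12* and *Pcdhgb1*, against 11.6% of all tested genes. Lower in all 3 pairs was 1 gamma gene (4.55%), against 13.2% of all tested genes. Of the 14 alpha genes 1 (7.14%) was higher and 3 (21.4%) were lower in all 3 pairs. Of the 21 tested beta genes these were 2 (9.52%) and 5 (23.8%).

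The A genes with the highest mean counts were *Pcdhga12* and *Pcdhga11*. *Pcdhga12* (ENSMUSG00000102428, 37765580 to 37841873) had 890, 865 and 937 normalized counts in the TG libraries, against 822, 839 and 750.5 in the WT libraries. The *Shank3* TG libraries were all higher, by a log2 fold change of 0.16 ± 0.08 (SE, 95% interval -0.03 to 0.35), and limma gave an unadjusted p-value of 0.0948. Without both libraries numbered 3 the log2 fold change was 0.08. *Pcdhga11* (ENSMUSG00000102742) had 855, 844 and 1037 in the TG libraries, against 749, 915 and 960.0 in the WT libraries, with overlap and a log2 fold change of 0.06 ± 0.13 (SE). The B genes with the highest mean counts were *Pcdhgb6* (ENSMUSG00000103088) and *Pcdhgb7* (ENSMUSG00000104063). *Pcdhgb6* had 553, 518 and 569 in the TG libraries, against 548, 452 and 572 in the WT libraries, with a log2 fold change of 0.07 ± 0.11 (SE). *Pcdhgb7* had 352, 376 and 388 in the TG libraries, against 386, 307 and 319 in the WT libraries, with a log2 fold change of 0.15 ± 0.12 (SE), which was 0.08 without WT-2, 0.25 without WT-1 and 0.08 without both libraries numbered 3. The libraries of both B genes overlapped.

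The 3 gamma C-type genes made up 57.3% to 62.2% of the cluster's counts. *Pcdhgc5* (ENSMUSG00000102543, 37819513 to 37841873), the last gene of the cluster, had 6955, 6624 and 6609 normalized counts in the TG libraries, against 6160, 6790 and 6215 in the WT libraries. WT-2 lay inside the *Shank3* TG range, and the log2 fold change was 0.08 ± 0.07 (SE). *Pcdhgc3* (ENSMUSG00000102918), whose cytoplasmic part binds the Wnt pathway scaffold Axin1, had 2891, 3030 and 2666 in the TG libraries, against 3199, 2676 and 2623 in the WT libraries, with a log2 fold change of 0.02 ± 0.10 (SE). *Pcdhgc4* (ENSMUSG00000023036), the gamma gene needed for the survival of cortical interneurons, had 3338, 2643 and 3634 in the TG libraries, against 3578, 2353 and 4024 in the WT libraries. Its level followed the number of the library and not the genotype, with library 2 lowest and library 3 highest in both, and its log2 fold change was -0.03 ± 0.20 (SE). The share of *Pcdhgc4* in the cluster ranged from 11.4% in WT-2 to 19.2% in WT-3. The summed markers of inhibitory neurons were 25237 to 26757 normalized counts in *Shank3* TG and 25406 to 26681 in WT, with 26359 and 25406 in TG-3 and WT-3.

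The alternate alpha genes varied between libraries of the same genotype by more than the other subgroups did in their medians. The pooled SD within genotype on the scale of log2(normalized count + 1) had a median of 0.34 over the 12 genes, against 0.18 for the beta, 0.19 for the gamma A, 0.14 for the gamma B and 0.17 for all tested genes. Divided by the SD that limma's trend gives for genes of the same abundance, it had a median of 2.01 and was above 1 for 12 of 12. The ratio ran from 1.02 for *Pcdha5* to 3.33 for *Pcdha2*. Over all tested genes the median was 0.997, and 8316 of 16714 were above 1. For the gamma A genes it was 1.37 (9 of 12 above 1), for the gamma B 0.99 (3 of 7) and for the beta genes 0.95 (8 of 21). The gamma C-type gene *Pcdhgc4* was at 3.07. The SD was 0.53 for *Pcdha1*, 0.67 for *Pcdha2* and 0.61 for *Pcdha8*, higher than in 89.9%, 93.3% and 92.2% of the tested genes. Within a genotype the highest library exceeded the lowest, in the genotype where this was wider, by a median of 1.63 times over the same 12 genes and by up to 3.46 times for *Pcdha2*, against a median of 1.30 times over all tested genes. From the libraries numbered 1 and 2 alone the median SD of the alternate alpha genes was 0.26, and that of all tested genes 0.12. Within the alternate alpha genes the SD was larger at lower levels (Spearman's rho -0.77 over 12 genes, which share libraries and constant exons), and it had a rho of 0 with the share of windows of their own. For the 22 beta genes these were -0.68 and -0.0096, and for the 19 gamma A and B genes -0.46 and 0.36.

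**Figure D4:**
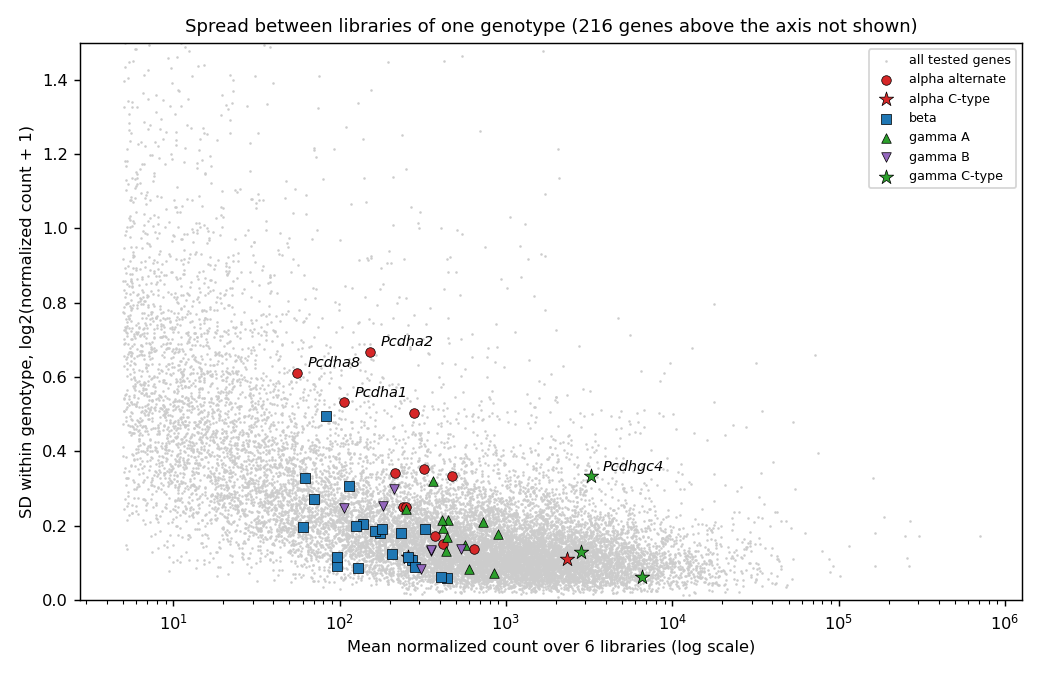
Pooled SD within genotype on the scale of log2(normalized count + 1) (y axis) against the mean normalized count over 6 libraries (x axis, log scale) for all 16714 tested genes (grey, of which 216 lie above the axis) and the clustered protocadherins (coloured by subgroup). Most alternate alpha genes, which have a median SD of 0.34, lie in the upper part of the cloud, with *Pcdha5*, *Pcdha9* and *Pcdha12* nearer its middle. *Pcdhgc4* stands above the other C-type genes, and most beta and gamma genes lie within the cloud.

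Part of this spread was shared by the libraries numbered 3. The deviations of the 12 alternate alpha genes from their genotype means correlated by 0.14, -0.22 and 0.22 between libraries of the same number and by -0.44 to 0.45 between those of different numbers, so that the former lay within the range of the latter. These correlations run across the genes, so they cannot show a shift that all 12 have in common in a library. In TG-3 the alternate alpha genes were above the mean of TG-1 and TG-2 by a median of 0.50 on the log2 scale, and in WT-3 above the mean of WT-1 and WT-2 by 0.33. In both genotypes 9 of the 12 (75%) were higher in library 3, against 35.8% of all tested genes, and 7 of the 12 (58.3%) had their highest value there, against 24.9%. The beta genes had medians of 0.06 and -0.10 in the same comparison, the gamma A genes 0.09 and -0.05, and 28.6% and 33.3% of them were higher in library 3 of both genotypes. Other measurements moved with library 3 as well. The endothelial adhesion gene *Pecam1* had 2359 normalized counts in TG-3 and 2560 in WT-3 and 657 to 811 in the other 4 libraries. The other 4 endothelial markers did not share this pattern, since *Flt1*, *Slco1a4*, *Cldn5* and *Ly6c1* were all lowest of their genotype in TG-3, and *Slco1a4* also in WT-3. *Rorb*, a gene of cortical layer 4 that was picked after its values had been seen, had 540 in TG-3 and 586 in WT-3. It had 1974 and 2072 in TG-1 and TG-2, against 1151 and 1124 in WT-1 and WT-2. The summed markers of excitatory neurons were highest in library 3 of each genotype (189916 and 182494) and those of astrocytes lowest (110851 and 113562). The choroid plexus gene *Ttr* had 445 normalized counts in TG-3 and 41.7 in WT-3, the highest value of each genotype. The part of any of these in the alpha values was not tested.

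**Figure D5:**
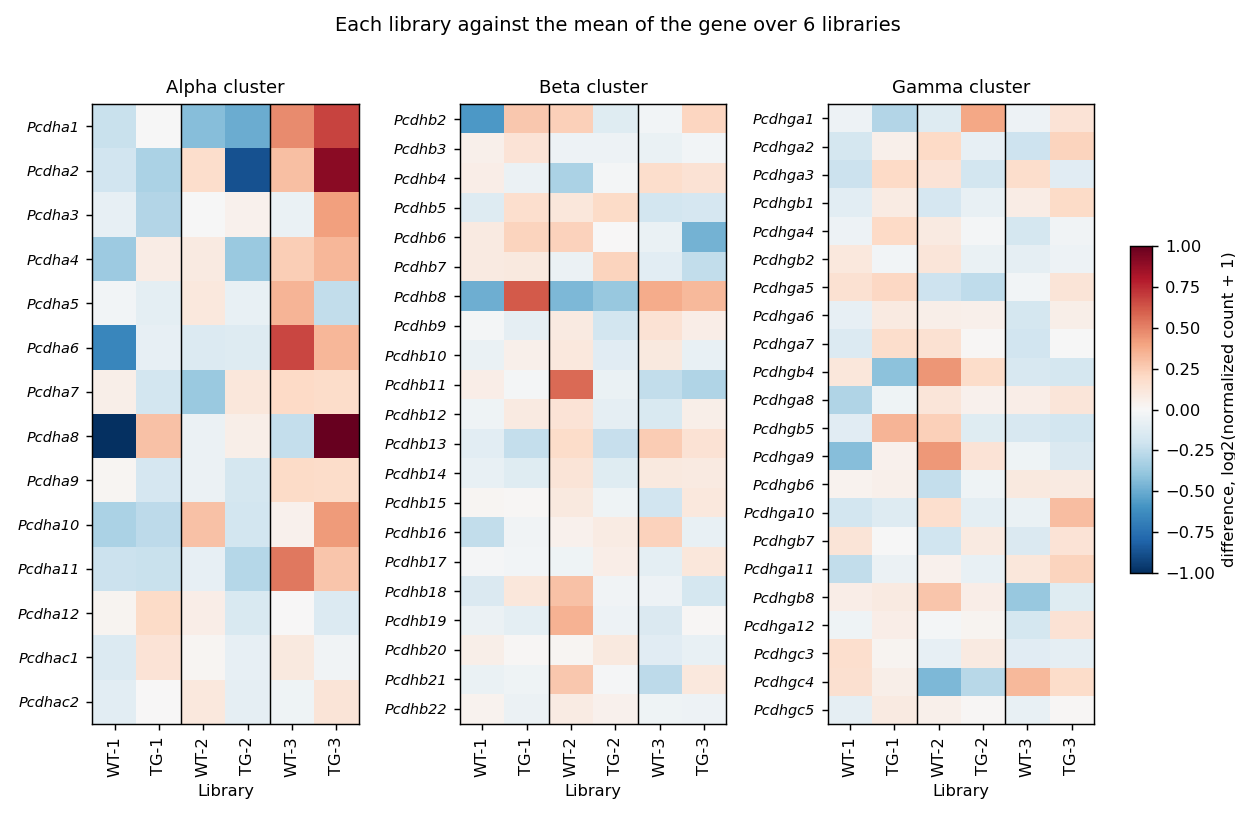
Difference of each library (columns, paired by number) from the mean over 6 libraries of the gene on the scale of log2(normalized count + 1) (colour, ending at -1 and 1) for the 57 tested members in their order along the chromosome. The columns WT-3 and TG-3 are red for most alternate alpha genes, and *Pcdhgc4* is blue in WT-2 and TG-2, while in other panels single libraries deviate, with WT-1 below the mean for 11 of 12 gamma A genes and WT-2 above it for 16 of 21 beta genes.

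Among the marker lists of cell types, the summed counts of the genotypes were apart for oligodendrocytes and overlapped for the others. All 6 oligodendrocyte markers were lower in *Shank3* TG, 5 of them below 0.05 in limma's unadjusted p-value (6 with the block), and their sum was 70011 to 92151 normalized counts in *Shank3* TG and 105686 to 107596 in WT. All 6 leptomeningeal markers were higher, 2 of them with an unadjusted p-value under 0.05 (3 with the block), with overlapping sums of 2041 to 2442 and 1746 to 2165. Of the 6 choroid plexus markers 4 had a log2 fold change above 0 and 2, *Folr1* and *Kl*, one below 0 (for *Folr1*, at -0.12, the mean normalized counts of 7.87 and 7.78 have the opposite order), and 1 of the 6 (*Ttr*) had an unadjusted p-value under 0.05 with or without the block. Their sum, led by *Ttr*, was 170.1 to 577 in *Shank3* TG and 106 to 181 in WT. The sums of the remaining lists were 110851 to 123195 in *Shank3* TG and 113562 to 128342 in WT for astrocytes, 7079 to 8860 and 7402 to 9664 for microglia, 6599 to 7641 and 6312 to 8323 for endothelium, 3379 to 3530 and 3274 to 3572 for striatal neurons, and 1686 to 2295 and 1622 to 2094 for olfactory bulb and neuroblasts. All 6 markers of the last list were higher in *Shank3* TG, 0 of them with an unadjusted p-value under 0.05, and TG-2 stood apart in 3 that were picked after their values had been seen. *Eomes* had 149 normalized counts in TG-2 and 4.41 to 30.6 in the other libraries, *Th* 170.0 against 38.1 to 64.9, and *Sp8* 125 against 38.8 to 68.7. TG-2 is also the library that lay below its WT partner in the sums of all 3 clusters, and the part of these cells in that was not tested. For excitatory neurons the sums were 164154 to 189916 in *Shank3* TG and 158552 to 182494 in WT. The genotypes did not overlap for 1 of these 8 markers, against 6.02% of all tested genes. This was *Slc17a7*, at 42302 to 45669 in *Shank3* TG and 39218 to 40002 in WT. With the block *Rorb* among the excitatory and *Ddc* among the serotonergic markers had an unadjusted p-value under 0.05, against 0 of either list without it. All listed markers that were measured were above the floor in at least 1 library. The part of these cell types in the values of *Pcdha8*, *Pcdha5* and *Pcdhga12* was not tested.

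Genes known to choose or silence protocadherin promoters were measured as well. The list of promoter choice and chromatin looping held 11 genes, CTCF, cohesin and its loaders and release factors, of which 10 were lower and 1 higher in *Shank3* TG with a median log2 fold change of -0.04. Its most abundant members were the cohesin genes *Pds5b*, *Rad21* and *Smc1a*. *Rad21* had 2925, 3069 and 2814 normalized counts in the TG libraries, against 2966, 3179 and 2842 in the WT libraries, with a log2 fold change of -0.03 ± 0.08 (SE). The 13 genes of promoter methylation and silencing, which include *Dnmt3b*, *Smchd1* and *Setdb1*, were 6 higher and 7 lower, with a median of -0.01. The methyltransferase *Dnmt3a* had 3102, 3505 and 3605 in the TG libraries, against 3245, 3144 and 3804 in the WT libraries, with a log2 fold change of 0.0048 ± 0.099 (SE). In both lists limma gave 0 genes an unadjusted p-value under 0.05, with or without the block, against 2.01% and 4.98% of all tested genes, and 0 had genotypes without overlap, against 6.02%. In lists of this size such counts are near the background.

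Downstream of the receptors, the 15 intracellular partners, among them the kinases *Fyn* and *Ptk2b* and the WAVE complex that remodels actin, were 12 higher and 3 lower in *Shank3* TG with a median of 0.02. Again 0 had an unadjusted p-value under 0.05, and with the block 1 did, *Wasf1*. The genotypes did not overlap for 4 of them, *Abi1* and *Brk1* (higher) and *Cyfip1* and *Wasf3* (lower), against 6.02% of all tested genes. These 4, named after their values had been seen, are among the 8 WAVE subunits in the list, and the genotypes overlapped for the other 4, *Wasf1*, *Cyfip2*, *Abi2* and *Nckap1*. *Abi1* had 2963, 3020 and 3018 normalized counts in the TG libraries, against 2780, 2767 and 2859 in the WT libraries, with a log2 fold change of 0.10 ± 0.06 (SE). *Cyfip1* had 2079, 2010 and 2192 in the TG libraries, against 2262, 2196 and 2281 in the WT libraries, with a log2 fold change of -0.10 ± 0.07 (SE). The 7 genes that shed and cleave protocadherins, *Adam10*, *Adam17* and the gamma-secretase subunits, were 7 higher and 0 lower, and their median was 0.02 with 0 unadjusted p-values under 0.05. Of 12 non-clustered protocadherins, which lie outside the arrays, 7 were higher and 5 lower with a median of 0.04 and 0 under 0.05, or 1 (*Pcdh17*) with the block. *Pcdh10*, which recruits the WAVE complex, had 6454, 6465 and 8378 in the TG libraries, against 6068, 6152 and 7474 in the WT libraries, highest in library 3 of both genotypes.

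The genes that flank the gamma cluster were measured as well. *Taf7*, between the beta and gamma clusters, had 203, 224 and 194 normalized counts in the TG libraries, against 185, 220 and 236 in the WT libraries, with a log2 fold change of -0.04 ± 0.13 (SE). *Diaph1*, downstream of the gamma cluster, had 1955, 1814 and 1886 in the TG libraries, against 1793, 1917 and 1789 in the WT libraries, with a log2 fold change of 0.04 ± 0.07 (SE). *Slc25a2*, which like *Taf7* lies between the beta and gamma clusters, had 1.88, 0.885 and 0 in the TG libraries, against 9.49, 4.87 and 2.40 in the WT libraries. The *Shank3* TG libraries and WT-3 were under the floor of 3, so the order of TG-1 and WT-3 lies below it. The mean over the 6 libraries was under 5 normalized counts, so *Slc25a2* was not tested.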

How the data were processed

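RNA of pooled mPFC (2 mice per library, 3 libraries per genotype) was sequenced by the authors after stranded mRNA library preparation. The authors estimated transcript abundance with Salmon 0.9.1 on GRCm38 with GC bias correction, summed it to genes with tximport and divided it by size factors in DESeq2 1.19.11 under R 3.6.0. The deposited values are this signal, normalized counts for 18254 genes in 6 libraries, which are not whole numbers. Library totals of 28363967 to 29447717 normalized counts are taken as depth, and no counting interval could be computed from them. Columns of per-sample values that no sample claimed numbered 0.

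GENCODE release M21 (GRCm38) supplied symbols, positions and exons for 18231 of the 18254 genes. The 16714 genes whose mean over the 6 libraries reached 5 normalized counts entered the test. Values were compared as log2(normalized count + 1), and the genotypes were tested against each other with limma 3.58.1 in R 4.3.3 (lmFit followed by eBayes with its trend option). The genotype was the only term, the test was two-sided, and Benjamini-Hochberg adjustment ran over all tested genes with a threshold of 0.05. Sums, shares, levels per kb (over the union of annotated exons) and spreads were computed in Python 3.11.15 and are descriptions with no test. The fits were checked on simulated data with known changes. The labels do not state that libraries of one genotype came from separate litters, so p-values measure the spread between these pools.

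The replicate numbers were taken to pair the libraries, since the deviations from the genotype means correlated across all tested genes by 0.30, 0.33 and 0.62 for the libraries numbered 1, 2 and 3, and by at most 0.27 for other combinations. Over the 57 tested members these were 0.11, 0.20 and 0.55, with up to 0.45 for other combinations. The methods of the study call the samples pairs without saying what a pair shares, and name no block in the model, so the main model has none. The study fitted a negative binomial model with DESeq2 and an empirical null, whereas limma was used here because the deposited values are not counts.

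The members, gene lists and tests were chosen with earlier results of these data known. Values in every library are given for the C-type genes, the 2 members with the highest mean in each of the alpha, beta, gamma A and gamma B groups, members with an unadjusted p-value under 0.05 or without overlap between genotypes, and the 3 with the largest SD within genotype. Of the other lists at most the 3 most abundant genes and those with an unadjusted p-value under 0.05 were eligible, and genes named outside these rules were picked after their values had been seen. Alternatives were a pseudocount of 0.1 or 5, a minimum mean of 50 or none, quantile normalization, rescaling to the upper quartile, eBayes without its trend or with its robust option, the block, an empirical null, each library left out, and the longest transcript for lengths. Leaving out both libraries numbered 3 was added after seeing the data. Sequences of the members were not used here.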

Additional observations from a re-analysis of the deposited data

How the results depend on the processing

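No clustered protocadherin had an adjusted p-value under 0.05 in the main model or in any of the other 17 fits. The count with an unadjusted p-value under 0.05 was 1 and became 2 with a minimum mean of 50, 0 without a trend in eBayes, 2 with the replicate block and 3 with the empirical null, and 1 to 2 when 1 library at a time was left out (2 without TG-1). Over all tested genes the adjusted count of 0 became 1 with the robust option, 1 with the replicate block, 26 with the empirical null, 1 without both libraries numbered 3, and 0 to 1 when 1 library at a time was left out (1 without WT-3). Members without overlap between genotypes numbered 3 with all libraries, 4 after rescaling to the upper quartile, 7 to 11 when 1 library at a time was left out and 17 without both libraries numbered 3. That is 12.3% to 19.3% and 29.8% of the 57 members, against 11.1% to 15.9% and 26.1% of all tested genes, since fewer libraries have to be separated. The share of the C-type genes in the level per kb was 42.7% and became 47.8% with the longest transcript.

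Of the 16 named members tested, 8 kept the sign of their log2 fold change under all 16 alternatives. The sign turned in 18 fits, each of which left out libraries, and the cause was not tested beyond that. Leaving out 1 library at a time gave -0.19 to 0.40 for *Pcdha1*, -0.69 to 0.20 for *Pcdha2*, -0.049 to 0.068 for *Pcdhac1*, -0.029 to 0.089 for *Pcdhac2*, -0.035 to 0.14 for *Pcdhgb6*, -0.046 to 0.13 for *Pcdhga11*, -0.033 to 0.11 for *Pcdhgc3* and -0.26 to 0.13 for *Pcdhgc4*. For those that kept it the range was -0.36 to -0.18 for *Pcdha5*, 0.65 to 1.24 for *Pcdha8*, -0.18 to -0.0051 for *Pcdha12*, 0.066 to 0.14 for *Pcdhb17*, -0.082 to -0.019 for *Pcdhb22*, 0.083 to 0.25 for *Pcdhgb7*, 0.11 to 0.19 for *Pcdhga12* and 0.050 to 0.12 for *Pcdhgc5*. Without both libraries numbered 3 the value was -0.044 for *Pcdhac2* and 0.034 for *Pcdhgc4*. The replicate block also moved the count of unadjusted p-values under 0.05 from 5 to 6 among the oligodendrocyte, from 2 to 3 among the leptomeningeal and from 0 to 1 among the excitatory and the serotonergic markers, the intracellular partners and the non-clustered protocadherins, and changed no other list count. Rescaling to the upper quartile and quantile normalization turned the direction of 0 of the named members, and 0 of 96 differences in the share of a member within its cluster moved by more than the spread. With 3 pools per genotype, small changes of the alternate alpha genes could have been missed, and the size that could be detected was not tested. The median SE of their log2 fold changes was 0.22, against 0.13 for all tested genes.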
